A study of Mus musculus with 16 samples.

Results

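Galanin neurons of the mouse hypothalamus and preoptic area were taken from 16 Drop-seq libraries as the neurons that carried at least 5 unique molecular identifiers (UMIs, each 1 captured transcript) of *Gal*, the gene of the peptide precursor galanin. A cell was kept when it had above 200 but below 4000 genes, with less than 15% of its UMIs on mitochondrial genes. It was called a neuron when at least 3 of 8 neuronal genes (*Snap25*, *Syt1*, *Stmn2*, *Snhg11*, *Meg3*, *Celf4*, *Map1b* and *Ndrg4*) were detected. Neurons with at least 5% of their UMIs on *Avp* plus *Oxt*, or with at least 8 *Pomc* UMIs, were left out. The 452 galanin neurons that met the rule were 4.67% of 9679 neurons and 0.812% of 55675 kept cells.

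The study asked how tamoxifen, a modulator of the estrogen receptor given against breast cancer, acts on hypothalamic cells with and without estrogen receptor alpha. All mice carried *Esr1* F/F, the floxed allele of that receptor, on a CD-1;129P2 mixed background. *Esr1* cKO mice also carried Nkx2-1Cre, a transgene that recombines cells with a history of *Nkx2-1* expression, and the mice called WT were their littermates without Cre. Mice labelled female, 8 to 10 weeks old at the start, received tamoxifen at 0.1 mg/kg or corn oil subcutaneously each day for 28 days and were euthanised 2 hr after the last injection. Each library was 1 mouse: 3 WT oil, 5 WT tamoxifen, 4 *Esr1* cKO oil and 4 *Esr1* cKO tamoxifen. Replicates are numbered here in accession order within a group, and 4 mice were collected on each of 4 days that the labels do not assign.

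Total depth ran from 2634253 to 8038158 UMIs per library. Galanin neurons numbered 3 to 50 per library, with a median of 24.5, and held 10982 to 180300 UMIs in sum. WT oil replicate 1 had only 3 of them, so it did not enter the edgeR fits, which used libraries with at least 10. The permutation tests of the galanin neurons' share and of *Gal* over all neurons kept it.

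Several libraries stood apart before any comparison was made. WT oil replicate 3 and *Esr1* cKO tamoxifen replicate 3 had at least 100 genes in every deposited barcode, against 20 in the other libraries. On the first principal component of the neurons' summed expression, which took 39.2% of the variance, they lay at 87.4 and 85.3, and the other 14 libraries lay between -29.9 and -2.55. The library labelled *Esr1* cKO oil replicate 3 held *Xist*, the transcript of the inactive X chromosome, at 0.582 CPM (UMIs of a gene scaled to a common library total) against 228 to 335 CPM in the other 15. The same library had the highest levels of the Y-linked genes *Ddx3y* (17.1 CPM), *Eif2s3y* (4.65 CPM) and *Kdm5d* (5.82 CPM), which went against its label as female. The Y-linked *Uty* did not stand out there, with 93 of 5158552 UMIs against 45 of 1717573 in WT oil replicate 1. The libraries numbered 13 to 16 in the labels shared 303 to 359 kept barcodes per pair, where at most 1.26 would be shared at random. The other pairs shared 0 to 42. Over all deposited barcodes, kept or not, more sets of libraries shared above the number at random, which was at most 6.22 for these pairs. Libraries 1, 6, 8 and 12 shared 45 to 100 per pair. It was 28 to 62 among libraries 2, 4, 9 and 10, and 24 to 167 among libraries 3, 5, 7 and 11. Each of these sets held 1 mouse of each group. Library 5 also shared 67 to 191 with libraries 13 to 16. Only 5 galanin neurons had a barcode that was kept in another library.

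Galanin is a neuropeptide released from dense-core vesicles that acts on G protein-coupled receptors and mostly lowers the activity of its target cells. In the preoptic area, galanin neurons are known for roles in sleep, body temperature and parental behaviour. In the arcuate nucleus galanin is found in neurons that make growth hormone-releasing hormone, and many galanin neurons also release GABA.

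*Gal* (chr19:3409915-3414544 on the reverse strand, GRCm38) was concentrated in few cells. Galanin neurons had 5 to 212 *Gal* UMIs, with a median of 14, and *Gal* made up 0.0612% to 4.29% of the UMIs of a cell, with a median of 0.453%. They carried 9882 of the 11896 *Gal* UMIs of all kept cells (83.1%). Another 1309 lay in the 9206 other neurons, of which 8.06% had a *Gal* UMI, and 435 in cells that were not neurons by the rule. There was no gap at the threshold: 43 galanin neurons had exactly 5 *Gal* UMIs and a median of 3217 UMIs in all, and 76 neurons just outside had exactly 4 and a median of 2840.5. At the other end, 43 members had at least 50.

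The rule favoured deep cells. Galanin neurons had a median of 3502 UMIs and 2134.5 genes, against 1659.5 UMIs and 1147 genes in other neurons, and 2.91% against 4.36% of their UMIs came from mitochondrial genes. A second set was therefore compared, the 1148 other neurons with at least 5 UMIs of another peptide precursor, called other peptide neurons below. Their median depth was 3322.5 UMIs, close to that of galanin neurons.

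Galanin neurons took a similar share of neurons in most libraries. In WT oil libraries the share was 0.855%, 4.84% and 5.13%. In WT tamoxifen libraries it was 5.53%, 3.77%, 3.51%, 5.10% and 3.65%, in *Esr1* cKO oil 5.61%, 4.87%, 5.31% and 5.25%, and in *Esr1* cKO tamoxifen 3.28%, 6.85%, 5.51% and 4.32%. WT oil replicate 1 was far below all others, and the ranges of all 4 groups overlapped. Exact two-sided permutation tests, adjusted over 4 contrasts, found no difference past the threshold. Tamoxifen minus oil was 0.706 percentage points in WT mice (exact p = 0.607, adjusted p = 0.743, n = 5 and 3) and -0.271 in *Esr1* cKO mice (exact p = 0.743, n = 4 and 4). *Esr1* cKO minus WT was 1.65 percentage points under oil (exact p = 0.114, adjusted p = 0.457, n = 4 and 3) and 0.678 under tamoxifen (exact p = 0.413, n = 4 and 5). The contrasts with WT oil depended on replicate 1. Without it the difference in WT mice turned to -0.670 and that of the genotypes under oil fell to 0.279 percentage points.

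The level of *Gal* within these cells was set in part by the rule and is described without a test. It was 1730, 3607 and 4715 CPM in WT oil, and 5390, 5410, 5779, 7205 and 9159 CPM in WT tamoxifen. The lowest of these values is of the library with 3 galanin neurons. The WT groups did not overlap, as for 8.45% of the 4369 genes tested between 2 and 5 of these libraries, and nothing is read from it because the rule used *Gal*. *Esr1* cKO oil libraries had 6184, 4583, 5588 and 4703 CPM and *Esr1* cKO tamoxifen libraries 6007, 4793, 5202 and 6786 CPM, and these groups overlapped. Over all neurons, a measure that does not use the *Gal* threshold, *Gal* was 597 ± 181 CPM (SD, n = 5) in WT tamoxifen and 305 ± 211 CPM (SD, n = 3) in WT oil, which did not pass the exact permutation test (p = 0.0714, adjusted p = 0.286), with WT oil replicate 1 at 77.8 CPM. In these sums, more cells and more RNA per cell cannot be told apart.

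**Figure D1:**
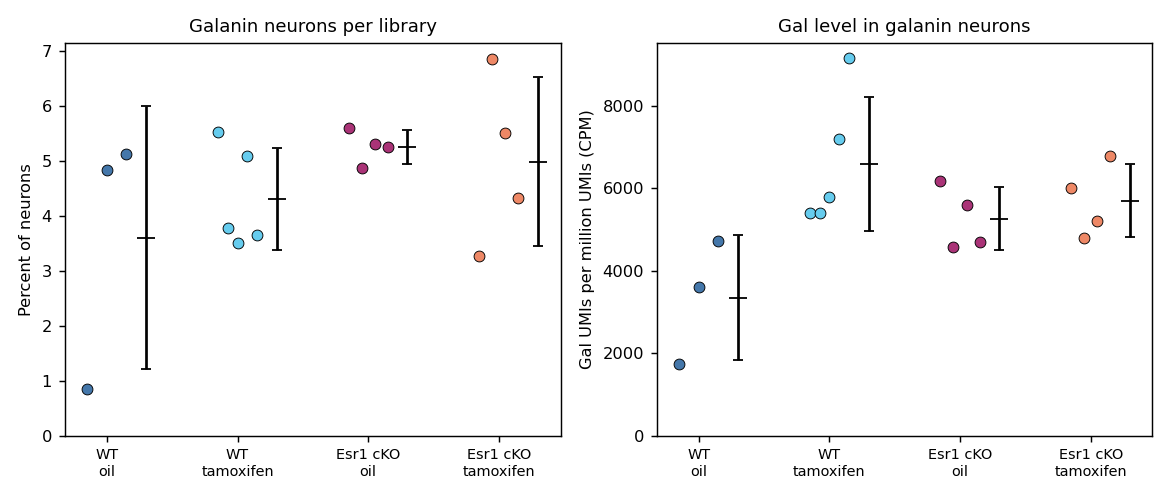
Left, galanin neurons as percent of neurons in each of the 16 libraries, by group. Right, *Gal* in CPM over the galanin neurons of each library. Points are libraries, the bar beside each group is its mean and the error bar its SD. The share of WT oil replicate 1 (0.855%) lies below all others, and its *Gal* level (1730 CPM) rests on 3 cells.

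The other genes given as marks of these cells, *Ghrh*, *Nts* and *Gpr50*, were each found in a minority of them. *Ghrh* (growth hormone-releasing hormone, chr2:157329497-157347506) was detected in 9.07% of galanin neurons, 2.70% of other peptide neurons and 1.21% of other neurons. *Nts* (neurotensin, chr10:102481756-102490486) was detected in 16.2%, 7.23% and 4.19% of the same classes, and *Gpr50*, an orphan receptor of the melatonin receptor family, in 9.96%, 1.39% and 2.13%. In 7515 oligodendrocyte-like cells, which should lack them and had a median of 707 UMIs, the shares were 0.160%, 0.386% and 0.106%. After each cell was thinned to 1000 UMIs, galanin neurons kept the higher shares: 6.52% against 0.604% of other neurons for *Ghrh*, 7.87% against 3.63% for *Nts* and 3.37% against 1.39% for *Gpr50*. The thinning left out 7 galanin neurons and 2754 other neurons. These markers were chosen with earlier results of these cells known, so the shares are a description.

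The reverse view showed how much of each peptide system the galanin neurons held. Of the 23 neurons with at least 5 *Ghrh* UMIs, 19 were galanin neurons (82.6%, exact 95% interval 61.2% to 95.05%, counting error only). For *Nts* it was 26 of 113 neurons (23.0%), for *Tac2*, the neurokinin B precursor, 41 of 215 (19.1%), and for *Penk*, the enkephalin precursor, 41 of 217 (18.9%). *Cartpt*, the CART precursor, gave 52 of 389 (13.4%). Of the 179 neurons with at least 5 UMIs of *Slc17a6*, the vesicular glutamate transporter, only 4 (2.23%) were galanin neurons. Neurons rich in *Ghrh* were thus mostly galanin neurons, and those rich in the other peptides mostly were not.

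Genes of GABA release were detected in most galanin neurons. A GABA gene without a glutamate transporter was detected in 340 of 452 (75.2%, exact 95% interval 71.0% to 79.1%), with 47.1% to 85.4% per library. The share was 37.4% in other neurons, which were shallower, and 43.5% in other peptide neurons. It was not thinned as a whole, but *Gad2*, one of its genes, was detected in 75.2% of galanin neurons, 39.5% of other peptide neurons, 31.1% of other neurons and 0.905% of the oligodendrocyte-like cells, and after thinning in 50.3%, 26.7% and 27.6% of the first 3 classes. A glutamate transporter without a GABA gene was found in 39 galanin neurons (8.63%), both in 33 (7.30%) and neither in 40 (8.85%). *Th*, the rate-limiting enzyme of catecholamine synthesis, was detected in 27.9% of galanin neurons, 5.31% of other peptide neurons and 2.63% of other neurons, with 0.160% in the oligodendrocyte-like cells. After thinning, *Th* stood at 13.03%, 2.73% and 1.43% in the first 3 classes. *Th* together with a GABA gene was found in 110 galanin neurons (24.3%). *Slc6a3*, the dopamine transporter, was detected in 0.442% of galanin neurons and 1.14% of other neurons, while *Ddc*, which makes dopamine from its precursor, was detected in 26.5% and 9.68%.

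**Figure D2:**
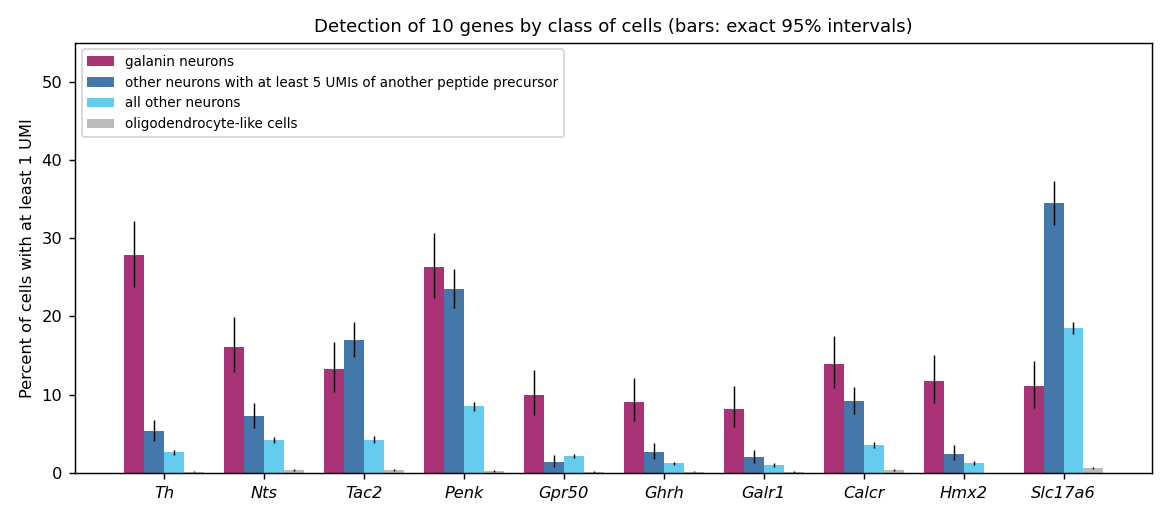
Percent of cells with at least 1 UMI of each of 10 genes in galanin neurons, other neurons with at least 5 UMIs of another peptide precursor, all other neurons and oligodendrocyte-like cells. Bars start at 0, and the lines are exact 95% intervals that cover counting error only. *Th* stands at 27.9% in galanin neurons and 5.31% in other peptide neurons, and *Slc17a6* at 11.1% and 34.5%.

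Which partner genes were detected in the same galanin neurons is given as a description. *Galr1*, a galanin receptor, was detected in 37 of them, and 23 of these 37 (62.2%) also had *Th*, against 24.8% of the galanin neurons without *Galr1*. None of the 41 cells with *Ghrh* and none of the 73 with *Nts* had a *Galr1* UMI, which allows shares of cells with a UMI of up to 7.32% and 4.11% (counting error only). The median depths were alike, with 3494 UMIs in cells with *Galr1* and 3506 in the rest. *Gpr50* went with *Tac2*: 28 of 45 cells with *Gpr50* (62.2%, exact 95% interval 46.5% to 76.2%) had a *Tac2* UMI, against 7.86% of those without, in 13 libraries. Cells with *Gpr50* were also deeper, at a median of 4362 against 3408 UMIs. *Cartpt* was detected in 41.5% of cells with *Ghrh* and 20.9% of the others. Cells of 1 library are not replicates, so these shares carry no test.

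UMIs were summed over the galanin neurons and over the other neurons of each of the 15 libraries with at least 10 galanin neurons, and compared within libraries with edgeR's quasi-likelihood test and Benjamini-Hochberg adjustment. Of 6300 genes tested, 868 were higher (13.8%) and 800 lower (12.7%) in galanin neurons. Against other peptide neurons of the same libraries, 157 of 3502 genes were called (4.48%), 65 higher (1.86%) and 92 lower (2.63%). Sums of glial and vascular markers moved with the first comparison. In the median library, the astrocyte markers summed to 595 CPM in galanin and 3456 CPM in other neurons, with *Apoe* the most abundant, and the oligodendrocyte markers to 706 and 2704 CPM. The endothelial markers summed to 54.2 and 694 CPM, the erythroid genes to 106 and 1081 CPM, and those of oligodendrocyte precursors to 11.99 and 168 CPM, with *Neu4* at 0 in galanin neurons. Microglial markers stood at 42.0 and 174 CPM, those of ependymal cells and tanycytes at 39.8 and 362 CPM, with *Rax* at 0, and those of the pars tuberalis at 0 and 27.1 CPM. Their part in the first comparison was not tested. The comparison with other peptide neurons called 1 of 4 astrocyte markers tested lower and 0 of 2 oligodendrocyte markers by edgeR.

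All 8 astrocyte, 7 oligodendrocyte, 3 endothelial and 4 erythroid genes tested were lower in galanin neurons than in all other neurons. So were, of the 2.56% of genes lower in every library, the 10 with the largest difference, from *Rgs5*, a gene of pericytes (13.02 against 267 CPM, a log2 fold change of -4.38), through *Mgp*, *Olig1*, *Cd9*, *Ly6a*, *Ly6c1*, *Cyr61*, *Zfp36* and *Epas1* to *Klf2* (-3.25). Of these, *Olig1* is on the list of oligodendrocyte precursor markers, *Ly6c1* on that of endothelial markers and *Klf2* on that of immediate early genes. Several lay near 0 in galanin neurons: *Mgp* and *Epas1* had no UMI there in 9 of 15 libraries, and *Olig1* and *Ly6a* in 8. Nothing is read from the size of these fold changes.

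*Dlx1*, a homeobox gene of forebrain GABA neurons, stood out among the genes of neurons. Per library it ranged from 132 to 332 CPM in galanin neurons, with a median of 238, and from 35.1 to 98.7 CPM in other neurons, with a median of 57.5, so the classes did not overlap. Its log2 fold change was 1.89 ± 0.114 (SE, adjusted p = 1.35e-18 by edgeR), it was higher in 15 of 15 libraries, and against other peptide neurons the log2 fold change was 2.04 (adjusted p = 8.09e-11 by edgeR). *Dlx1* was detected in 48.5% of galanin neurons, 10.7% of other peptide neurons and 8.39% of other neurons.

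Among the 11 regional transcription factors tested, 4 were higher and 5 lower in galanin than in other neurons (81.8% called, against 26.5% of all genes). *Dlx1*, *Prox1* (log2 fold change 0.90), *Isl1* (0.59), a LIM homeobox gene, and *Nr2f2* (0.42), a nuclear receptor of interneurons, were higher. The *Isl1* call was lost with at least 10 *Gal* UMIs (0.32, adjusted p = 0.275 by edgeR) and with at least 5 of the 8 neuronal genes (0.32, adjusted p = 0.147), and that of *Nr2f2* without the filter on low counts (adjusted p = 0.0519), with at least 3 *Gal* UMIs (0.27, adjusted p = 0.0599) and in WT libraries alone (adjusted p = 0.0959). *Six3* (-2.004) and *Zic1* (-1.11) were lower. Against other peptide neurons *Nr2f2* was 1.12 higher on the log2 scale (adjusted p = 7.18e-06 by edgeR), while *Isl1* did not pass (0.17, adjusted p = 0.704). The homeobox genes *Hmx2*, *Hmx3* and *Gsx1*, which help to form *Ghrh* neurons, were too low for the filter. *Hmx3* was higher in galanin neurons in 15 of 15 libraries (50.04 ± 37.3 against 8.93 ± 4.39 CPM), *Hmx2* in 13 of 15 (37.7 against 7.06 CPM) and *Gsx1* in 10 of 15 (14.6 against 3.65 CPM). In the fit without that filter, where 432 of 25280 genes were higher (1.71%) and 2542 lower (10.1%), the log2 fold changes were 2.23 for *Hmx3* (adjusted p = 4.20e-18 by edgeR), 2.33 for *Hmx2* and 1.85 for *Gsx1*. Most called members of the list of regional transcription factors went the other way there: of 45, 9 were higher and 21 lower (median -0.80).

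Of 8 transmitter genes tested, 5 were higher and 2 lower (87.5% called, against 26.5% of all genes). *Gad2*, which makes GABA, had 499 to 1227 CPM in galanin neurons, with a median of 812, and 367 to 669 CPM in other neurons, with a median of 462. The ranges overlapped, but *Gad2* was higher in 15 of 15 libraries (log2 fold change 0.80 ± 0.0729 SE, adjusted p = 1.19e-12 by edgeR) and by 0.84 against other peptide neurons. *Slc32a1*, the vesicular GABA transporter, gave 0.80 and 0.91 in the same comparisons and *Gad1* 0.37 and 0.44, all called. The first *Gad1* call was lost with at least 5 of the 8 neuronal genes (0.15, adjusted p = 0.374 by edgeR), without the filter on low counts (adjusted p = 0.105) and in WT libraries alone (adjusted p = 0.0727). *Slc17a6* was lower, at 65.0 against 180 CPM (log2 fold change -1.58) and by -1.91 against other peptide neurons. *Th* had 139 ± 84.3 CPM against 27.7 ± 15.5 CPM (SD, n = 15), was higher in 14 of 15 libraries (log2 fold change 2.34 ± 0.219 SE, adjusted p = 3.25e-12 by edgeR) and was 0.98 higher than in other peptide neurons (adjusted p = 0.0489 by edgeR). *Ddc* gave 0.74, and 0.51 without a call against other peptide neurons (adjusted p = 0.0971 by edgeR).

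All 11 neuropeptide precursors tested differed from other neurons, 7 higher and 4 lower, where 26.5% of all genes were called. *Tac2* (1448 against 334 CPM, log2 fold change 1.80), *Nts* (1.35, not called by DESeq2 at an adjusted p of 0.0735), *Penk* (324 against 165 CPM, 1.01), *Pdyn*, the dynorphin precursor (1.01), *Pnoc*, the nociceptin precursor (0.87), *Cartpt* (0.61) and *Cck* (0.48) were higher. *Cck* was higher in only 8 of 15 libraries and lower in 7, at 180 ± 158 against 128 ± 55.3 CPM (SD, n = 15). The *Pdyn* call was lost by DESeq2 (adjusted p = 0.134), with under 5% mitochondrial UMIs (adjusted p = 0.180 by edgeR) and in WT libraries alone (0.15, adjusted p = 0.809). That of *Cartpt* was lost by DESeq2 (adjusted p = 0.194), with at least 5 of the 8 neuronal genes (0.34, adjusted p = 0.213 by edgeR), with under 5% mitochondrial UMIs (adjusted p = 0.0663) and without *Esr1* cKO tamoxifen replicate 1 (adjusted p = 0.0519). *Sst*, somatostatin (62.0 against 357 CPM, -2.85), *Npy* (24.8 against 201 CPM, -2.67), *Tac1*, the substance P precursor (-1.58, and -0.82 in WT libraries alone, adjusted p = 0.0509), and *Trh* (-0.94, not called by DESeq2 at an adjusted p of 0.0501, and 0.0741 with at least 3 *Gal* UMIs) were lower. The *Tac2* level rested on few cells: 13 of the 452 galanin neurons held 2089 of their 2455 *Tac2* UMIs (85.1%), and without them the libraries had 0 to 737 CPM. The other peptide neurons were chosen by such precursors, so no direction is read from them: there *Tac2* gave -0.42, *Pdyn* -0.21, *Penk* -0.87 and *Cartpt* -1.48. *Nts*, *Tac2* and *Cartpt* varied widely among libraries, with *Nts* at 8.39 to 748 CPM and a median of 133 in galanin neurons.

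Few receptor genes could be tested against other peptide neurons. Of 6 hormone receptors tested there 0 were higher and 1 lower by edgeR, with 2 at an unadjusted p under 0.05, and of 2 peptide and transmitter receptors 1 was higher. *Prlr*, the prolactin receptor, had 97.4 to 348 CPM in galanin neurons and 38.8 to 156 CPM in other neurons, was higher in 15 of 15 libraries (log2 fold change 1.11 ± 0.119 SE, adjusted p = 1.59e-10 by edgeR), and did not pass against other peptide neurons (0.28, adjusted p = 0.439). *Esr1* gave 0.76 and 0.35 in these comparisons, and only the first was called, though not with at least 10 *Gal* UMIs (0.52, adjusted p = 0.0590 by edgeR). *Htr2c*, a serotonin receptor, was called in both (0.62 and 0.90), and the first call was lost in WT libraries alone (0.48, adjusted p = 0.130). *Oprk1*, the kappa opioid receptor (1.38), and *Npy2r* (0.995) were higher than in other neurons, and *Ramp1*, a receptor-modifying protein (-2.62), and *Rora*, a nuclear receptor (-1.48, and -0.59 against other peptide neurons), were lower. Against all other neurons, 2 of 11 hormone receptors were higher and 4 lower, and 3 of 8 peptide and transmitter receptors were higher and 1 lower. These were 54.5% and 50% of the lists, against 26.5% of all genes. *Galr1* (25.8 ± 15.98 against 5.66 ± 2.53 CPM) and *Calcr*, the calcitonin receptor (65.9 ± 50.4 against 25.5 ± 8.64 CPM), were below the filter and higher in 14 and 11 of 15 libraries. Without the filter their log2 fold changes were 2.02 and 1.27 (adjusted p = 2.20e-09 and 6.75e-09 by edgeR). In that fit 8 of 41 peptide and transmitter receptors were higher, 3 lower and 30 not called (median 0.01), where 1.71% of all genes were higher and 10.1% lower.

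Of 21 genes of the machinery of peptide secretion, 11 were higher than in all other neurons, 4 were lower and 6 did not pass (median log2 fold change 0.38, against 0.02 over all genes tested). *Resp18*, a protein of peptide-secreting cells, had 2381 against 1064 CPM (1.14 ± 0.0555 SE) and *Scg2*, a granin, 4338 against 2308 CPM (0.89 ± 0.0702 SE), and both were higher in 15 of 15 libraries. *Chgb* gave 0.65, and *Cpe*, a processing carboxypeptidase, -0.48. Against other peptide neurons 2 of 20 were higher and 1 lower (median 0.04, against 0.02 over all genes): *Scg2* (0.48) and *Resp18* (0.31) were the higher genes, and *Cadps2*, a factor of vesicle release, the lower one (-1.09). These were 15% of the list, where 4.48% of all genes were called; in the first comparison it was 71.4% of the list and 26.5% of all genes.

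Of 24 imprinted genes tested 12 were higher and 4 lower than in all other neurons (median 0.24, 66.7% called against 26.5% of all genes). Against other peptide neurons 6 of 20 were higher, where 1.86% of all genes were, and 0 lower by edgeR (median -0.03, with 10 of 20 at an unadjusted p under 0.05 in either direction). *Peg10* (1.17 and 0.63), *Nap1l5* (0.73 and 0.50) and *Gnas*, the stimulatory G protein subunit (0.71 and 0.47), were higher in both. *Nnat* was lower (-1.37), without a call in the second (-0.49, adjusted p = 0.0683 by edgeR). Of 10 genes of an estrogen-response list 5 were higher and 2 lower (70% called, against 26.5% of all genes). In the second comparison it was 0 and 1 of 8 (12.5%, against 4.48%), and *Cited1* fell from 1.22 to 0.06. Of 15 glycolysis genes 0 were higher and 1 lower than in all other neurons by edgeR, with 3 at an unadjusted p under 0.05. That was 6.67% of the list, against 26.5% of all genes.

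Immediate early genes report recent activity but also rise during tissue dissociation. Against all other neurons 12 of 13 were lower (median -0.91), where 12.7% of all genes were, with *Fos* at 598 against 1008 CPM (-0.74). With at least 5 of the 8 neuronal genes per neuron *Fos* turned to 0.17 (adjusted p = 0.194 by edgeR). Against other peptide neurons 1 of 9 was higher and 0 lower by edgeR (median 0.33, with 5 at an unadjusted p under 0.05), and *Fos* gave 0.33 (adjusted p = 0.234 by edgeR). *Npas4*, whose expression is largely confined to neurons, was higher in both, by 0.75 (adjusted p = 0.000190) and 0.73 (adjusted p = 0.0150), and in 13 of 15 libraries, though the first call was lost in WT libraries alone (0.67, adjusted p = 0.0617).

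Of the genes tested, 1.92% were higher in all 15 libraries, and those with the largest log2 fold changes include several more. *Zcchc12*, a transcriptional coactivator (944 against 376 CPM, log2 fold change 1.29), *Ecel1*, a peptidase of the endothelin-converting enzyme family (182 against 66.4 CPM, 1.43), *Fam46a* (155 against 47.1 CPM, 1.68), *AW551984* (1.13), *Asb4* (140 against 58.6 CPM, 1.24) and *Nenf*, a secreted neurotrophic protein (0.98), were also called against other peptide neurons, where they gave 0.91, 0.79, 0.73, 0.64, 0.57 and 0.43. *Dgkk*, a diacylglycerol kinase (1.43), *Spint2*, a protease inhibitor (1.03), *2010204K13Rik* (0.87) and *Ly6h* (0.84) were not, at 0.34, 0.44, 0.31 and 0.26.

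**Figure D3:**
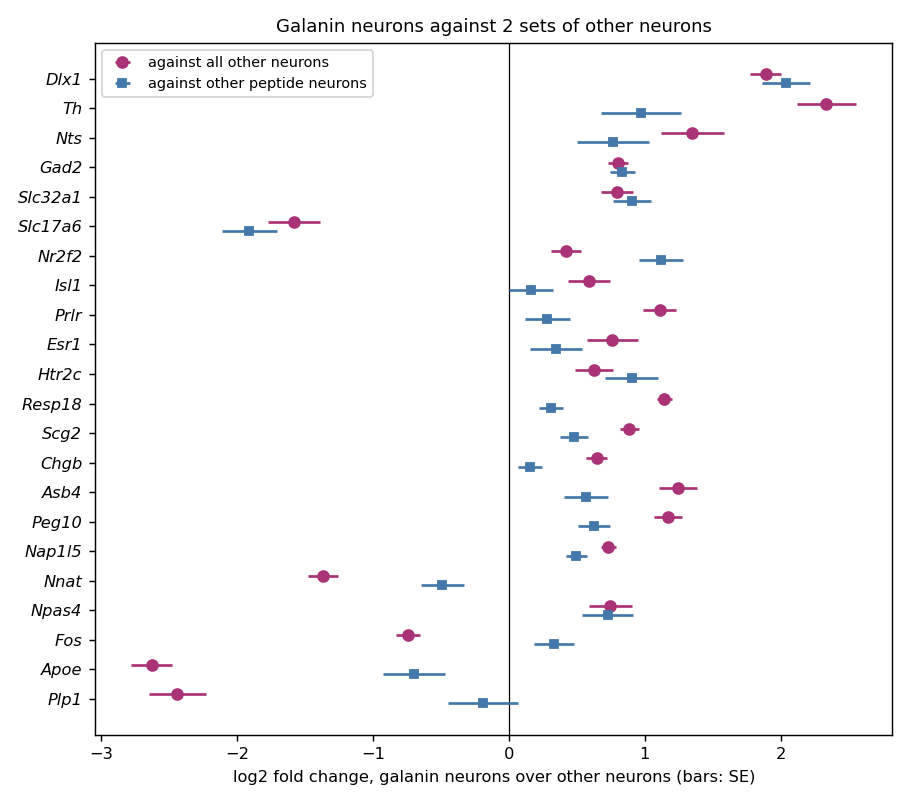
Log2 fold change of galanin neurons over all other neurons (circles) and over other neurons with at least 5 UMIs of another peptide precursor (squares) for 22 genes, with SE from the edgeR fit. *Dlx1*, *Gad2* and *Slc17a6* stand at like values in both comparisons (1.89 and 2.04, 0.80 and 0.84, -1.58 and -1.91), while *Prlr* and *Fos* do not.

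Within the galanin neurons, cells with at least 2 *Ghrh* UMIs were compared with those without, in the 5 libraries with at least 3 of each. Of 842 genes 1 was called (0.119%). *Scg2* was lower in *Ghrh* cells, at 1830 ± 945 against 4964 ± 1297 CPM (SD, n = 5), a difference of -1.53 ± 0.220 on the log2 scale (SE, adjusted p = 0.000948 by edgeR), and was lower in 5 of 5 libraries, as were 4.28% of genes tested. The call was lost with under 5% mitochondrial UMIs (adjusted p = 0.147) and without *Esr1* cKO tamoxifen replicate 3 (adjusted p = 0.132). For *Nts*, 8 libraries and 1088 genes gave 1 call (0.0919%). *Pcp4*, a calmodulin-binding protein, was higher in *Nts* cells, at 1519 ± 515 against 826 ± 305 CPM (SD, n = 8), by 0.84 ± 0.146 (SE, adjusted p = 0.00131 by edgeR), in 8 of 8 libraries, as were 0.551% of genes tested. It was not called when *Nts* cells had to hold at least 3 UMIs (0.83, adjusted p = 0.0883 by edgeR) or without the filter on low counts (0.38, adjusted p = 0.506).

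*Esr1* itself (chr10:4611593-5005614) came first in the comparison of genotypes. The floxed part is an internal exon, and tags from the 3′ end of the transcript lie outside it, so these counts do not check the deletion. *Nkx2-1*, whose regulatory sequence drives the Cre, was detected in 9.51% of galanin neurons, and how many had expressed it earlier was not tested. *Esr1* in galanin neurons was 91.1 (3 cells), 91.6 and 117 CPM in WT oil and 86.3, 84.0, 79.0, 70.0 and 227 CPM in WT tamoxifen. It was 21.0, 148, 39.4 and 55.6 CPM in *Esr1* cKO oil and 75.8, 78.8, 33.3 and 86.7 CPM in *Esr1* cKO tamoxifen. The genotypes overlapped, and *Esr1* cKO over WT, averaged over treatments, was -0.83 ± 0.370 on the log2 scale (SE, adjusted p = 0.999 by edgeR).

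Tamoxifen against oil gave no gene past the threshold in galanin neurons. Of 4369 genes tested, edgeR called 0 in WT mice (0%, 159 at an unadjusted p under 0.05, which was 3.64%), and DESeq2 called 1. In *Esr1* cKO mice edgeR called 0 (0%, 276 at an unadjusted p under 0.05, 6.32%), and DESeq2 0. The interaction of treatment and genotype gave 0 by edgeR (0%, 222 at an unadjusted p under 0.05, 5.08%) and 0 by DESeq2. The WT contrast rested on 2 oil libraries against 5, and without WT oil replicate 2 the interaction gave 58 calls with a lone WT oil library assumed to vary like the rest.

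The genes with the smallest p did not pass. In WT mice they were *Plcb4*, a phospholipase C (510 CPM under oil and 224 under tamoxifen, log2 fold change -1.13, adjusted p = 0.9996 by edgeR), *Ptprz1*, a receptor phosphatase (96.1 and 242 CPM), and *Ppia*, cyclophilin A (1024 and 539 CPM). The groups did not overlap for any of these 3, as for 369 of 4369 genes (8.45%). In *Esr1* cKO mice they were *Srsf11*, a splicing factor (427 and 219 CPM, -0.95, adjusted p = 0.616 by edgeR), *Gm10076* (0.78) and *Pcsk1n*, an inhibitor of prohormone convertase (0.68). For the interaction they were *Ptprz1* (-1.75), *Ocrl* (-2.08) and *Pcdh7* (-2.44), at an adjusted p of 0.921 by edgeR. Of 14 neuropeptide precursors and 7 estrogen-responsive genes tested, 0 passed in either genotype by edgeR, with 4 and 0 at an unadjusted p under 0.05 in WT mice and 5 and 2 in *Esr1* cKO mice.

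*Vgf* (chr5:137026392-137033351), a granin-like precursor of secreted peptides, was higher in the galanin neurons of *Esr1* cKO mice under both treatments. It had 0 (3 cells), 83.3 and 67.1 CPM in WT oil and 199, 120, 92.1, 126 and 94.7 CPM in WT tamoxifen. In *Esr1* cKO libraries it had 351, 345, 472 and 318 CPM under oil and 357, 426, 727 and 369 CPM under tamoxifen. Every *Esr1* cKO library was above every WT library, as for 2 of 4369 genes (0.0458%). In *Esr1* cKO oil replicate 3, the library at 472 CPM, 1 cell held 51 of the 84 *Vgf* UMIs. The level of that library thus came mostly from 1 cell. Whether it stays above WT tamoxifen replicate 1, at 199 CPM, without this cell was not tested, so the lack of overlap may rest on that cell. In other neurons *Vgf* ran from 64.4 to 142 CPM in WT and from 136 to 224 CPM in *Esr1* cKO libraries.

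*Vgf* was the only gene of 4369 called under oil by edgeR (0.0229%), at 2.34 ± 0.397 on the log2 scale (SE, adjusted p = 0.0247). The oil groups did not overlap for 13.2% of genes. Under tamoxifen 2 genes were called (0.0458%), *Vgf* at 1.88 ± 0.264 (SE, adjusted p = 0.00147) and *Nov*, also called *Ccn3*, a secreted matricellular protein, at 5.92 ± 0.962 (SE, adjusted p = 0.00679). The galanin neurons of WT tamoxifen libraries held only 2 *Nov* UMIs, against 129 in *Esr1* cKO tamoxifen. The fold change of *Nov* is thus over a group near 0, and nothing is read from its size or call. No marker of other cells was called under tamoxifen. All 5 astrocyte (median -0.92) and 2 oligodendrocyte markers tested (median -0.84) were below 0, as was the 1 erythroid gene (-2.07). Their part was not tested. Averaged over treatments, a contrast added after the data were seen, *Vgf* was the gene called (1 of 4369, 0.0229%), at 2.11 ± 0.239 (SE, adjusted p = 3.85e-05 by edgeR). The oil call for *Vgf* did not hold without the library labelled *Esr1* cKO oil replicate 3 (2.20, adjusted p = 0.119 by edgeR), *Esr1* cKO oil replicate 1 (adjusted p = 0.0564) or 2 (adjusted p = 0.0503), or WT oil replicate 2 (adjusted p = 0.0717) or 3 (adjusted p = 1). The tamoxifen call for *Vgf* held when each library was left out in turn, and that for *Nov* did not without WT tamoxifen replicate 1 (adjusted p = 0.0539) or 4 (adjusted p = 0.0750). With at least 3 *Gal* UMIs the oil call for *Vgf* was lost (1.76, adjusted p = 0.281 by edgeR). With at least 10 *Gal* UMIs the calls for *Vgf* under oil (2.71, adjusted p = 0.581 by edgeR), *Vgf* under tamoxifen (1.68, adjusted p = 0.140) and *Nov* (6.22, adjusted p = 0.0984) were lost, and DESeq2 did not call *Nov* (adjusted p = 0.0591). With under 5% mitochondrial UMIs none of these calls by treatment held, by edgeR. *Vgf* gave 2.78 under oil (adjusted p = 0.129), and under tamoxifen *Vgf* gave 1.46 and *Nov* 5.17 (adjusted p = 0.456 for each). The averaged call for *Vgf* was lost in the alternatives without neurons of at least 5 or 50 *Tac2* UMIs.

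A fit of both classes with the library as a block, also added after the data were seen, compared galanin with other neurons between genotypes. It called 3 of 6300 genes (0.0476%), 2 with a higher ratio of galanin to other neurons in *Esr1* cKO mice (0.0317%) and 1 with a lower ratio (0.0159%). The difference for *Vgf* was 1.51 ± 0.230 on the log2 scale (SE, adjusted p = 0.000205 by edgeR), with galanin and other neurons at 112 and 121 CPM in WT and at 420 and 164 CPM in *Esr1* cKO libraries. *Chga*, chromogranin A, gave 1.06 (adjusted p = 0.00292), from 302 and 448 CPM in WT to 566 and 407 CPM in *Esr1* cKO. *Penk* gave -1.38 (adjusted p = 0.00107), from 380 and 109 CPM in WT to 275 and 213 CPM in *Esr1* cKO, with lower values in galanin neurons and higher values in other neurons of *Esr1* cKO mice. With DESeq2 *Vgf* was the gene called (1 gene), and *Penk* (adjusted p = 0.0509) and *Chga* (adjusted p = 0.0957) were not; with under 5% mitochondrial UMIs *Penk* was the gene called. Markers of other cells had no call by edgeR in this term and did not share a direction. The 8 astrocyte markers tested split into 4 above and 4 below 0 (median 0.01). All 3 endothelial markers (median 0.42) and the 1 oligodendrocyte precursor marker (0.06) were above 0, and the 1 ependymal marker was below (-0.62). All 7 oligodendrocyte markers tested were above 0 (median 1.11, 4 at an unadjusted p under 0.05), with sums of 509 to 2764 CPM in *Esr1* cKO galanin neurons, the highest in oil replicate 4, and all 4 erythroid genes were below 0 (median -1.46, 2 at an unadjusted p under 0.05). Their part in the result was not tested.

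A small set of cells held much of the *Vgf* signal of *Esr1* cKO mice, mostly under tamoxifen. *Tac2* (chr10:127724478-127731768) reached at least 50 UMIs in 56 neurons, of which 54 were from *Esr1* cKO mice (18 oil and 36 tamoxifen), and 13 of the 56 (23.2%) were galanin neurons. Of these 13, 12 came from 6 *Esr1* cKO libraries, 2 under oil and 10 under tamoxifen, and 1 came from WT tamoxifen replicate 4. The 12 cells had 69 to 255 *Tac2* UMIs. *Nov* and *Pdyn* were detected in all 12, *Vgf* in 11, *Esr1* in 10, *Slc17a6* in 9, *Kiss1*, the kisspeptin gene, in 6 and *Gad2* in 1. Neurons of the arcuate nucleus that make kisspeptin, neurokinin B and dynorphin are a known glutamatergic group with estrogen receptor.

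Of the UMIs in *Esr1* cKO galanin neurons these 12 cells held 212 of 420 of *Vgf* (50.5%), 152 of 153 of *Nov* (99.3%) and 2031 of 2198 of *Tac2* (92.4%). Their part in *Vgf* differed by treatment, at 39 of 195 UMIs under oil and 173 of 225 (76.9%) under tamoxifen. Under oil a single cell outside this set, in *Esr1* cKO oil replicate 3, held more, with 51 *Vgf* UMIs and 1 *Tac2* UMI. Without the neurons of at least 50 *Tac2* UMIs, *Vgf* had 151 to 472 CPM with a median of 247 in *Esr1* cKO oil and 56.2 to 231 CPM with a median of 105 in *Esr1* cKO tamoxifen. It had 67.1 to 199 CPM with a median of 94.7 in WT libraries with at least 10 galanin neurons. *Esr1* cKO tamoxifen libraries then overlapped with WT, and *Esr1* cKO oil libraries stayed above the WT oil libraries. The 472 CPM was of *Esr1* cKO oil replicate 3, where the single cell named above held 51 of 84 *Vgf* UMIs, and it was not recalculated without that cell.

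When neurons with at least 50 *Tac2* UMIs were left out, a choice made after the data were seen, no *Vgf* contrast passed. The log2 fold change was 1.99 under oil (adjusted p = 0.974 by edgeR), 0.08 under tamoxifen (adjusted p = 0.999) and 1.04 averaged (adjusted p = 1). The class difference of *Vgf* between genotypes fell from 1.51 to 0.72 (adjusted p = 0.996) and that of *Chga* from 1.06 to 0.34 (adjusted p = 0.996), while *Penk* stayed at -1.31 (adjusted p = 0.00467).

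**Figure D4:**
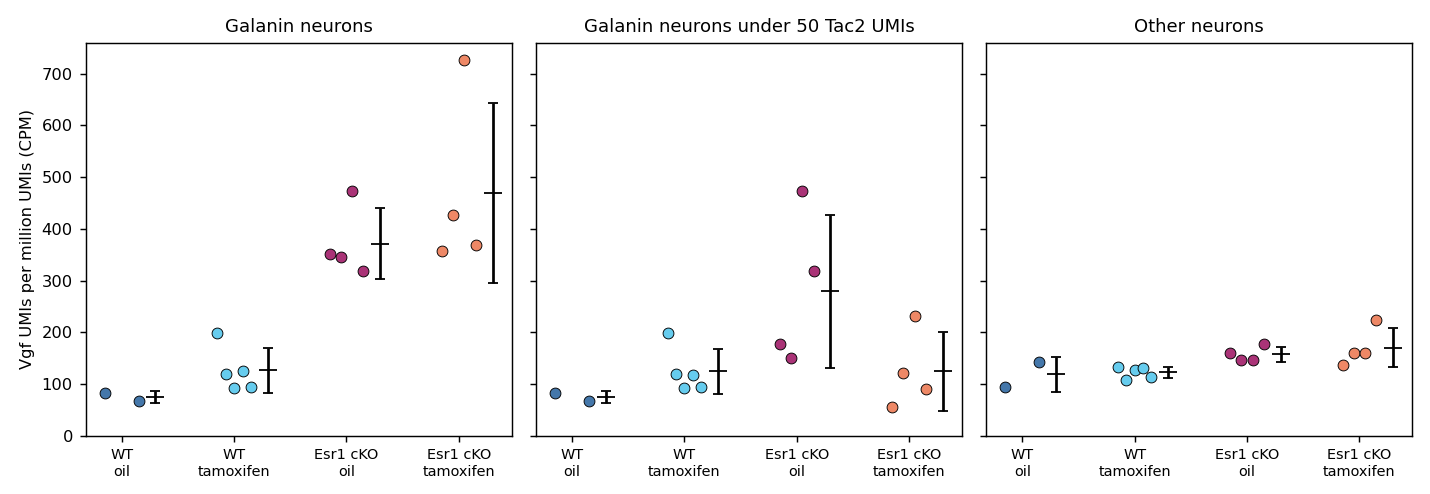
*Vgf* in CPM by library and group in galanin neurons, in galanin neurons with fewer than 50 *Tac2* UMIs, and in other neurons, over the 15 libraries with at least 10 galanin neurons. Points are libraries, bars the mean and SD. *Esr1* cKO libraries (318 to 727 CPM) lie above WT (67.1 to 199 CPM) on the left, and *Esr1* cKO tamoxifen libraries overlap with WT in the middle.

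*Tac2* and *Nov* followed the same cells. *Tac2* in galanin neurons was 6343, 1167, 4720 and 3133 CPM in *Esr1* cKO tamoxifen, 1493, 2333, 191 and 71.5 CPM in *Esr1* cKO oil and 0 to 737 CPM in WT libraries. The tamoxifen groups did not overlap, as for 83 of 4369 genes (1.90%), but the contrast of 3.44 did not pass (adjusted p = 0.130 by edgeR). Its call depended on the libraries and settings: it passed without the filter on low counts, with at least 3 *Gal* UMIs (adjusted p = 0.0257), with at least 20 galanin neurons per library (adjusted p = 0.0373) and without WT oil replicate 2 (adjusted p = 0.0265) or 3 (adjusted p = 0.0307) or *Esr1* cKO tamoxifen replicate 2 (adjusted p = 0.0373) or 3 (adjusted p = 0.0361), and turned to -0.90 (adjusted p = 0.999) without neurons of at least 50 *Tac2* UMIs. *Nov* was 379, 126, 399 and 152 CPM in *Esr1* cKO tamoxifen and 0 to 11.99 CPM in WT libraries. It was 35.1, 296, 0 and 7.94 CPM in *Esr1* cKO oil, so under oil it was high in 1 library.

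**Figure D5:**
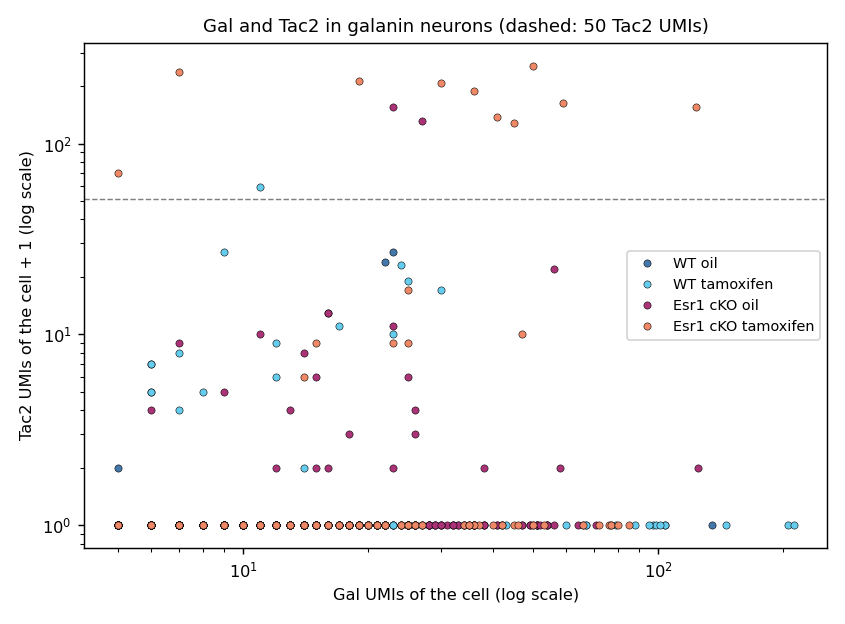
*Gal* UMIs (x axis) against *Tac2* UMIs plus 1 (y axis) of the 452 galanin neurons, both on log scales, coloured by group. The dashed line marks 50 *Tac2* UMIs; above it lie 13 cells, 12 of them from *Esr1* cKO mice, with 5 to 123 *Gal* UMIs.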

How the data were processed

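Single-cell transcriptomes were made by Drop-seq from 16 hypothalami, 1 library per mouse. The authors deposited, for each library, raw whole-number UMI counts by gene and barcode, without normalization and without pooling of replicates. The submitters' processing notes name STAR 2.6, Seurat 3.6.1 and the build mm10, and the counting program and annotation are not given in the sources used here. Barcodes with few genes had been removed before deposit, and the study's own cell filter was applied here from its limits. Gene positions came from GENCODE on GRCm38.

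Cells, neurons and galanin neurons were taken by the rule given above. The members, the gene lists and the lists of markers were chosen with earlier results of these data known. Scrublet (scanpy 1.11.5, expected doublet rate 0.05) marked 6 galanin neurons and 510 kept cells (0.916%) as doublets, which were removed only in an alternative. UMIs were summed per library and class. Libraries needed at least 10 galanin neurons, or at least 3 cells of each class within galanin neurons. Sums were tested with edgeR 4.0.16 (R 4.3.3; TMM, filterByExpr, quasi-likelihood) with the library as a block between classes, and in 1 fit of the 4 groups between mice, with adjusted p under 0.05 called. Shares were compared with exact two-sided permutation tests (scipy 1.17.1, Python 3.11.15). The labels give 1 mouse per library, so p-values of contrasts between groups measure the spread between mice. Those of fits with the library as a block measure how the difference between classes varies from mouse to mouse. Intervals of shares are exact Clopper-Pearson at 95%, with an upper limit of 3 counts for a count of 0, and cover counting error only.

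Named genes were those of the lists, the 15 highest and 10 lowest called log2 fold changes with 1 direction in every library of a class comparison, and the 3 largest called changes without overlap, or else the 3 smallest p, of a contrast between groups; a gene withheld from the text is not reported here. Alternatives were DESeq2 1.42.0, its size factors, no filter on low counts, other limits on *Gal* UMIs, mitochondrial UMIs, neuronal genes, depth, doublets and cells per library, WT libraries alone, other peptide neurons, a term for successive fours of libraries and each library left out. Those chosen after the data were seen were barcodes kept in 1 library, removal of WT oil replicate 3 and *Esr1* cKO tamoxifen replicate 3, at least 3 galanin neurons per library, and removal of neurons rich in *Tac2*. The tests were checked on simulated counts.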

Additional observations from a re-analysis of the deposited data

Results flagged for a closer look

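In 63 groups of 4 or 5 libraries, 3 had a library far from the rest by Dixon's criterion, which chance gives in about 1 of 20 groups. *Esr1* in galanin neurons stood at 227 CPM in WT tamoxifen replicate 5, against 70.0 to 86.3 CPM in the other 4 libraries. *Ghrh* stood at 1721 CPM in *Esr1* cKO tamoxifen replicate 1, against 0 to 227 CPM. *Nov* stood at 296 CPM in *Esr1* cKO oil replicate 2, against 0 to 35.1 CPM.

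The difference between galanin and other neurons was not the same in the genotypes for 3 genes, by the class-by-genotype term of edgeR: *Vgf* (1.51, log2), *Chga* (1.06) and *Penk* (-1.38).

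Cells outside the comparisons also carried *Gal*. The limits on *Avp* plus *Oxt* and on *Pomc* left out 21 neurons with at least 5 *Gal* UMIs, 15 by the first and 6 by the second, and they held 5 to 59 *Gal* UMIs, 270 in all. Another 15 of 45996 kept cells that were not neurons by the rule had at least 5 *Gal* UMIs.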

How the results depend on the processing

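Galanin against other neurons gave 1668 calls, 2974 without the filter on low counts, 811 with under 5% mitochondrial UMIs, 887 with at least 5 of the 8 neuronal genes, 157 against other peptide neurons, and 1533 to 1920 with each library left out. Of the named genes' values under all alternatives, 1863 kept direction and side of the threshold, 39 lost the call and 8 changed sign: *Tac2* -0.42, *Pdyn* -0.21, *Penk* -0.87, *Cartpt* -1.48 and *Fos* 0.33 against other peptide neurons, *Fos* 0.17 with 5 neuronal genes, *Trh* 0.0741 with at least 3 *Gal* UMIs and *Vgf* -0.0923 in WT libraries. Cells with *Ghrh* gave 117 calls without the filter, 2 with at least 3 *Gal* UMIs, without doublets or with at least 3 *Ghrh* UMIs, 0 with under 5% mitochondrial UMIs or without WT oil replicate 3 and *Esr1* cKO tamoxifen replicate 3, and 0 to 6 with each library left out. Cells with *Nts* gave 50, 3 with at least 1000 UMIs per cell, 0 with at least 3 *Nts* UMIs, and 1 to 3.

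Tamoxifen in WT mice gave 1 call by DESeq2, 17 without the filter, 38 without WT oil replicate 2 and *Esr1* cKO tamoxifen replicate 2, and 0 with each library left out. That pair was listed by another numbering and is not the one that stands apart (replicates 3); either pair leaves 1 WT oil library in the fit. *Esr1* turned from positive to -0.0932 without that pair and to -0.0906 with the term for successive fours, and ran from -0.35 to 0.26 with each library left out, below 0 without WT tamoxifen replicate 5 or WT oil replicate 2. In *Esr1* cKO mice there were 24 without the filter, 2 without WT oil replicate 3 and *Esr1* cKO tamoxifen replicate 3, and 0 to 1 with each library left out. There *Esr1* ran from -0.0921 to 0.72 with each library left out, below 0 without *Esr1* cKO oil replicate 1, and without neurons of at least 5 or 50 *Tac2* UMIs *Esr1* turned to -0.0015 and -0.19 and *Vgf* to -1.06 and -1.11. The interaction gave 14 without the filter, 104 and 1 without those pairs of libraries, and 0 to 58.

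*Esr1* cKO against WT under oil gave 11 calls without the filter, and 0 with at least 3 or 10 *Gal* UMIs, under 5% mitochondrial UMIs, without either pair of libraries or without neurons of at least 5 or 50 *Tac2* UMIs, and 0 to 1 with each library left out. Under tamoxifen there were 1 by DESeq2, 29 without the filter, 5 and 0 with at least 3 and 10 *Gal* UMIs, 0 with under 5% mitochondrial UMIs, 12 and 9 without the first and second pair, 8 with at least 20 galanin neurons per library, 0 without neurons of at least 5 or 50 *Tac2* UMIs (*Tac2* -0.90), and 1 to 8 with each library left out. Averaged, there were 12 without the filter, 2 with at least 3 *Gal* UMIs, 0 without neurons of at least 5 or 50 *Tac2* UMIs (*Tac2* -0.45) and 1 to 2. The class-by-genotype term gave 1 by DESeq2, with under 5% mitochondrial UMIs and without either set of *Tac2* neurons, and 3 to 4.

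Differences in share ranged over -0.670 to 1.47 (tamoxifen, WT), -0.893 to 0.3002 (tamoxifen, *Esr1* cKO), 0.279 to 2.42 (genotype, oil) and 0.0559 to 1.25 (genotype, tamoxifen) percentage points with each library left out. With neurons thinned to 1000 UMIs these differences were 1.40, -0.646, 2.06 and 0.0167 in the same order. None passed the exact permutation test (lowest adjusted p = 0.457). As *Gal* CPM over all neurons, tamoxifen minus oil in *Esr1* cKO mice turned to 44.1 and *Esr1* cKO minus WT under tamoxifen to -33.5. For values that changed, the cause was not tested. No paired analysis was possible by replicate number because the numbers follow accession order and pair no mice. A term for successive fours of library numbers, the first 3 of which hold 1 mouse of each group, gave as many calls as the fit without it in all 6 contrasts between groups. Apart from libraries 13 to 16, the sets of libraries that shared barcodes were not these fours. No term for those sets was fitted, so the contrasts between groups do not account for them. With 3 to 50 galanin neurons per library, genes of few UMIs were not tested between groups.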

Other observations

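Rare neurons with very high levels of another releasing peptide were also among the galanin neurons. *Gnrh1*, gonadotropin-releasing hormone, reached at least 50 UMIs in 8 neurons, of which 3 were galanin neurons with 320, 382 and 410 *Gnrh1* UMIs and 14, 7 and 6 *Gal* UMIs, in this order. These 3 came from 3 libraries and had 6159, 7571 and 5320 UMIs in all, in the same order, where the others had 646 to 5382. Membership used the *Gal* count and favoured deep cells, so nothing is read from the groups they came from. With so few cells no test was made. *Npvf*, the precursor of RFamide-related peptides, reached at least 5 UMIs in 6 neurons, and 4 of these were galanin neurons, with 43 to 341 *Npvf* UMIs, from 4 libraries.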
